A study of Mus musculus with 8 samples.

Results

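The genes described here are 36 genes of autophagy and the lysosome, listed by name for their roles in starting autophagy, lipidating Atg8 proteins, selecting cargo and degrading it. All 36 were found by symbol, 1 row each, among the 27179 genes of the deposited table of mouse liver RNA sequencing. The libraries came from the livers of 4 wild-type mice and 4 mice homozygous for V227A, which replaces a valine of the nuclear receptor PPARɑ by alanine. All mice were adult C57BL/6NHsd males fasted for 6 h. The substitution is a germline change that every cell of the V227A mice carries, and the line descends from 1 base-edited heterozygous founder backcrossed to C57BL/6NHsd. The value used is the authors' mean log2 CPM (reads of a gene in a library scaled to 1000000 reads, on a log2 scale), which is 1 number per gene over the 8 libraries of both genotypes. Values of single mice and the levels of each genotype were not analysed here, so no spread between mice, no difference between wild-type and V227A and no test can be given for any gene below.

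Autophagy encloses cytoplasm in a double membrane, the autophagosome, and delivers it to lysosomes for breakdown. Fasting turns the pathway on in liver through the ULK1 kinase complex, and the liver draws amino acids, lipids and glycogen from it. PPARɑ, the receptor that carries the substitution, is itself known as a fasting-activated regulator of autophagy genes, as are TFEB and TFE3, transcription factors that bind a short palindromic sequence in lysosomal promoters.

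The sequences upstream of the listed genes are shown first, and no gene was listed for its sequence. The motif was searched because *Tfe3* is one of the genes, and it is known from lysosomal promoters. A higher share among these genes may therefore follow from the choice of genes and motif, which was not tested, and is no independent result. The core TCACGTG was searched on both strands, where it reads CACGTGA on the other one. Each promoter covered 250 bases before and 50 after an annotated start (RefSeq, GRCm38.p6). Among the 36 genes 29 had an entry, with 32 promoters in all, and *Becn1*, *Pik3c3*, *Atg12*, *Atg16l1*, *Map1lc3a*, *Bnip3l* and *Ctsb* had none. The core was present in 6 of the 32 promoters (18.8%), against 887 of the 16988 promoters (5.22%) of genes with reads in these livers. The core holds the 2 bases CG, and the 32 promoters had a median of 21.5 of these pairs, against 17 for genes with reads. Their median share of G and C was 60.3%, against 59%. Whether base composition accounts for the difference in matches was not tested. The genes were *Lamp1*, *Ctsd*, *Atg3*, *Atg7*, *Rubcn* and *Atg14*. *Lamp1*, *Ctsd* and *Atg3* held it at 2 or more separate places, as did 0.530% of the promoters of genes with reads. In the lines below capitals mark matches to the core on either strand, and each sequence runs 5′ to 3′ on the strand of the gene. For *Lamp1*, which had most matches, the 250 bases before the start are given, and for the other 5 genes the 30 bases around each place.
*Lamp1* (chr8:13158911-13159160, plus strand): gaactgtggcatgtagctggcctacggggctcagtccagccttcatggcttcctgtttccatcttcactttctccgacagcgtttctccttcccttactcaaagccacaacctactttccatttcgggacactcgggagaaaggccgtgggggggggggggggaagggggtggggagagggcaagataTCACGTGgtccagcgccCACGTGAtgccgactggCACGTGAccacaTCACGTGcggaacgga
*Ctsd*, far place (chr7:142388048-142388077, minus strand): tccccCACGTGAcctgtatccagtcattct
*Ctsd*, near place (chr7:142387908-142387937, minus strand): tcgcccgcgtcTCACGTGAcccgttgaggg
*Atg3*, far place (chr16:45158723-45158752, plus strand): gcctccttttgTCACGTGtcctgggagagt
*Atg3*, near place (chr16:45158746-45158775, plus strand): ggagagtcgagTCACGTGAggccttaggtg
*Atg7* (chr6:114670952-114670981, plus strand): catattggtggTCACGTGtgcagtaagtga
*Rubcn* (chr16:32868437-32868466, minus strand): cgcctagcacaTCACGTGtacccaggttag
*Atg14* (chr14:47568417-47568446, minus strand): aaacaaaatccCACGTGActggccctgagc

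Positions are counted from the first transcribed base as 0. *Lamp1*, which encodes an abundant glycoprotein of the lysosomal membrane, had 4 separate matches, which began at -62, -45, -28 and -16. Only 4 of the 16988 promoters of genes with reads had 4 or more. *Ctsd*, the gene of the aspartyl protease cathepsin D, had a match at -245 and the 8-base palindrome TCACGTGA, which matches on both strands, at -99. *Atg3*, the gene of the enzyme that passes Atg8 proteins on to their lipid, had a match at -95 and the same palindrome at -72. *Atg7* had a single match at -133, *Rubcn* at -89 and *Atg14* at -1. The RefSeq start behind the matches of *Ctsd*, *Atg3*, *Atg7*, *Rubcn* and *Atg14* lies within the span of the gene in GENCODE vM21, which holds transcripts that begin further upstream. How far inside differs. The promoter of *Atg3* (45158579-45158878) spans the start of its gene, 45158785, whereas that of *Atg7* (114670846-114671145) lies far from 114643097. *Rubcn* has another promoter, at chr16:32877680-32877979 over the outer end of the gene (32877766), and it holds no match. For 25 of the 32 promoters, bases after the start were found in a GENCODE transcript of the gene.

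**Figure D1:**
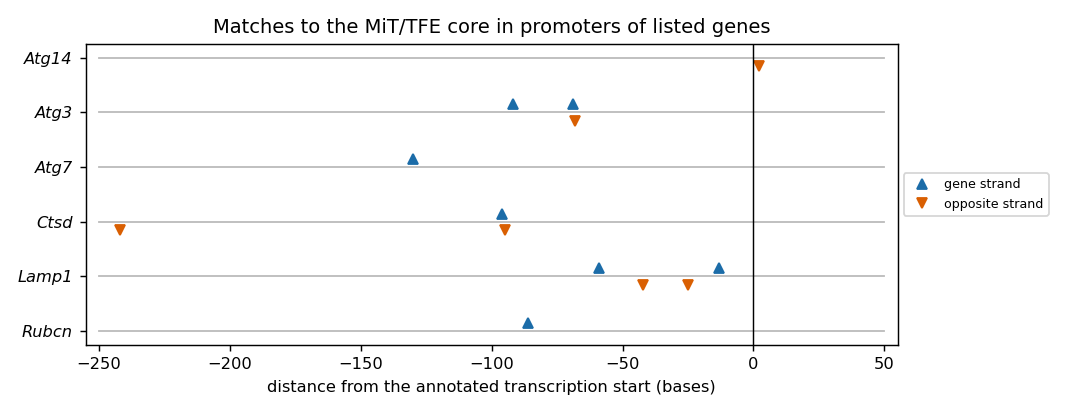
Positions of matches to the MiT/TFE core in the promoters of the 6 listed genes that hold it. The horizontal axis is the distance in bases from the annotated transcription start (0), each grey line is 1 promoter from 250 bases before to 50 bases after the start, and triangles mark the centre of each match on the strand of the gene or on the opposite strand. The 4 matches of *Lamp1* lie close together just before its start, and that of *Atg14* spans its start.

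The core contains the E-box CACGTG, which other basic helix-loop-helix factors also bind. The E-box was found in 9 of the 32 promoters and in 9.05% of promoters of genes with reads, and it added *Atg5*, *Bnip3* and *Ctsl* to the 6 genes. An exact direct repeat of AGGTCA with 1 base between the repeats is the form of site bound by PPARɑ with its partner RXR. It was in 0 of the 32 promoters and in 8 of the 16988 (0.0471%). A match this rare would seldom fall among 32 promoters, so the 0 does not show that these genes lack such sites. The forkhead motif GTAAACA was also in 0 of the 32, against 2.85% of the promoters of genes with reads. The cAMP response element TGACGTCA was in 1, that of *Atg5*, against 2.67%. At shares this low, counts of 0 or 1 among 32 promoters do not show a lack of either motif. These are matches of letters within 300 bases, and binding was not measured.

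RNA of all 36 genes was detected. Genes at the lowest value of the table, -3.78, have no reads (8242 genes), and the other 18937 are the genes with reads. At a mean library size of 27473997 reads, estimated from that lowest value, *Atg10* had the fewest, an estimated 107.8 reads per library, and *Lamp1* the most, 18620 reads per library. Each of the 36 genes lay above 0 on the log2 CPM scale, as did 61.8% of the genes with reads. The median of the list was a log2 CPM of 5.96, against 1.89 over all genes with reads. Higher than 90% of the genes with reads lay 18 of the 36, and higher than 75% lay 31. *Atg10*, with 50.7% of the genes with reads below it, was the one gene of the list near the median of all genes. Together the 36 genes took 0.549% of all counts. Of that share the 5 lysosomal genes held 47.5% and the 5 Atg8 genes held 20.3%.

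**Figure D2:**
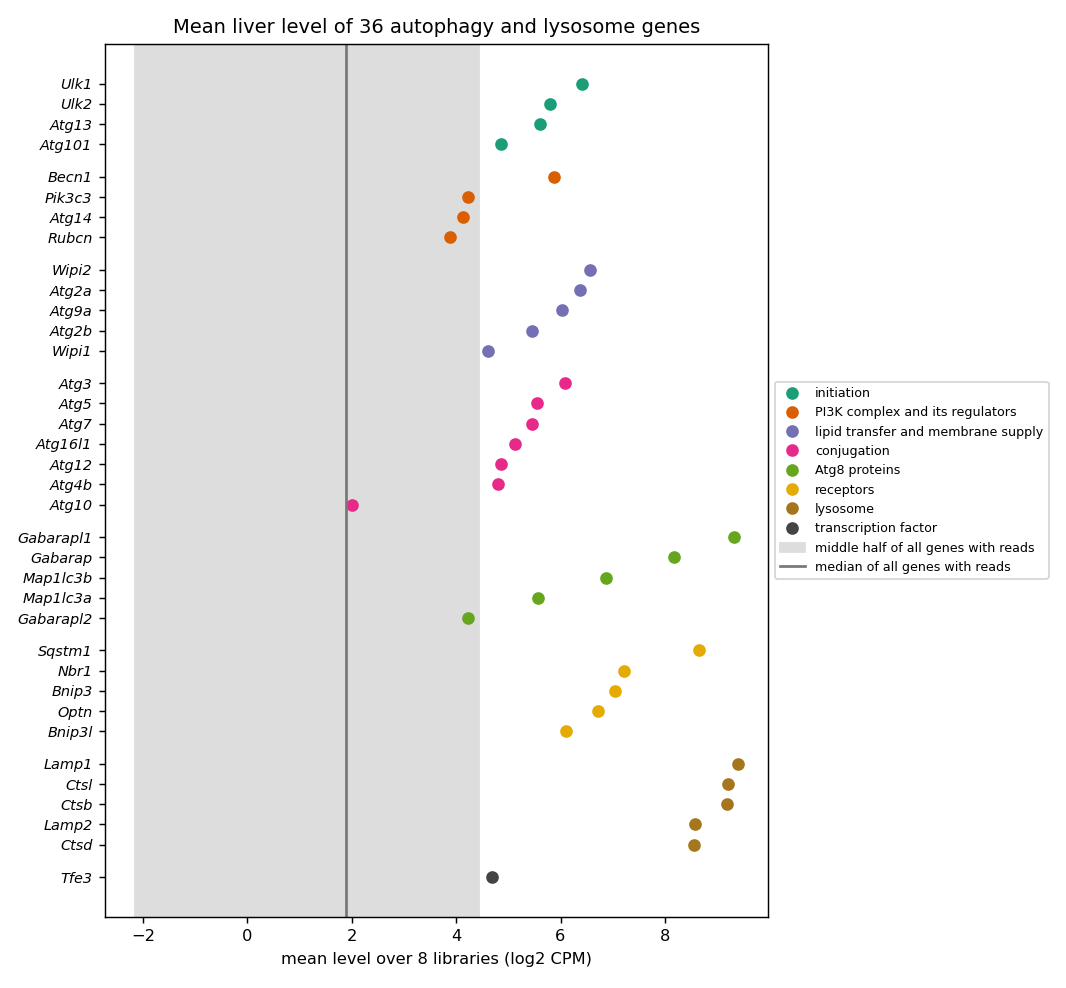
Mean level over the 8 libraries on the log2 CPM scale (horizontal axis) of each of the 36 genes, grouped and coloured by role. Each point is the authors' single mean, the grey band runs from the lower to the upper quartile of all genes with reads and the line marks their median of 1.89. Of the listed genes *Atg10* is the one at the line, and all 5 lysosomal genes lie above 8.5.

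A longer transcript gives more reads, so the listed genes, their families and the other genes of the pathway are compared below per length, as CPM per kb of exon. The length is that of all exon bases of a gene in GENCODE vM21 (GRCm38), merged over its transcripts. Ranges in parentheses are exact 95% Poisson intervals of the estimated reads over the 8 libraries, and they cover counting error only. On this scale all 36 genes lay above the median gene with reads (1.07 CPM per kb), and 14 lay above 90% of the genes with reads. The median of the list was 12.2 CPM per kb. The order ran from *Gabarapl1* at 319.9 CPM per kb down to *Rubcn* at 1.97 CPM per kb, a range of 163-fold. In 8 of the 35 pairs of neighbours in that order the counting intervals overlapped, so that counting alone does not place *Map1lc3a* above *Lamp2*, *Nbr1* above *Atg3*, *Atg101* above *Bnip3l*, *Atg9a* above *Atg13*, *Becn1* above *Gabarapl2*, *Pik3c3* above *Atg14*, *Atg12* above *Atg16l1*, or *Atg4b* above *Atg2b*. The spread between mice is unknown here and could blur more of them. The order also depends on the length used. With the longest transcript of each gene in place of its merged exons, 36 genes still lay above the median gene and the first 10 were the same genes, but *Gabarap* (212 CPM per kb) came before *Ctsd* (177 CPM per kb), and the lowest gene was *Atg10* (2.48 CPM per kb) and not *Rubcn* (2.77 CPM per kb). The level changed most for *Lamp2*, by 2.65-fold, followed by *Atg16l1*, 2.57-fold, and *Wipi2*, 2.04-fold.

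**Figure D3:**
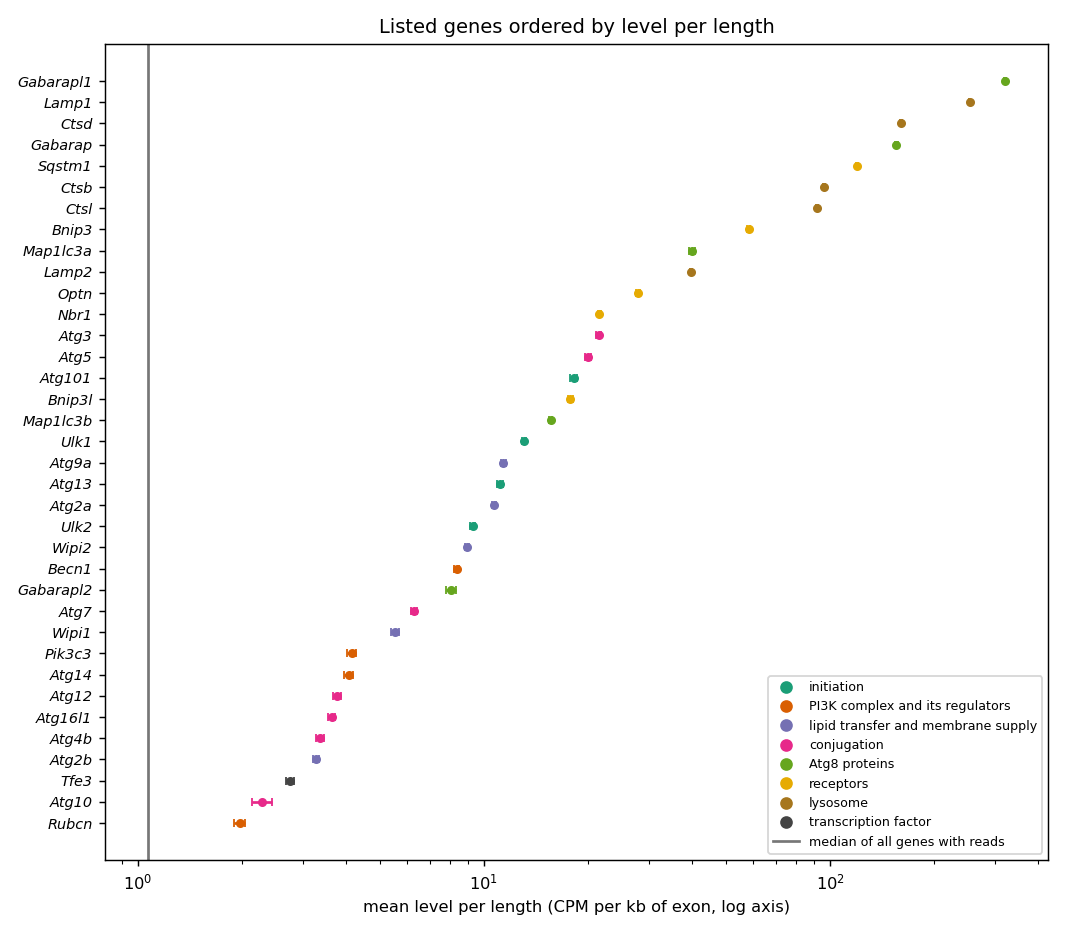
The 36 genes ordered by their level per length (CPM per kb of exon, log axis). Points are means over the 8 libraries coloured by role, bars are 95% Poisson intervals that cover counting error only, and the grey line is the median of all genes with reads, 1.07 CPM per kb. Lysosomal genes, Atg8 genes and the receptor gene *Sqstm1* fill the first 7 places.

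Autophagy starts with the ULK complex. Its 4 listed genes were close together, between 9.27 and 18.2 CPM per kb. *Ulk1*, the kinase that nutrient sensors switch on, had 13.1 CPM per kb (12.9 to 13.3) and its relative *Ulk2* had 9.27 (9.11 to 9.44). *Ulk3*, a related kinase outside the list, had 2.38 CPM per kb. *Atg13*, the adaptor of the complex, had 11.2 CPM per kb, and *Atg101*, which stabilizes it, had 18.2 CPM per kb (17.7 to 18.6). *Atg101* is the shortest of these genes, and its level rests on an estimated 797.6 reads per library over 1597 exon bases, against 2329.5 reads over 6488 bases for *Ulk1*.

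The next step is the lipid kinase complex that marks the forming membrane with phosphatidylinositol 3-phosphate. *Becn1*, its scaffold, had 8.34 CPM per kb, the catalytic subunit *Pik3c3* had 4.15 and the autophagy-specific subunit *Atg14* had 4.06 CPM per kb. *Rubcn*, which encodes a negative regulator of the complex, had 1.97 CPM per kb (1.90 to 2.04), the lowest level of the list with merged exons as length and the next to lowest, after *Atg10*, with the longest transcript. None of these 4 genes lay above 90% of the genes with reads per length, and their estimated reads ran from 404 per library for *Rubcn* to 1618 for *Becn1*. The value for *Becn1* (chr11:101285952-101302286, minus strand) is uncertain, because 43.9% of its exon bases also lie in exons of *Cntd1* on the opposite strand and the sources used here do not say whether the counting used the strand.

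The genes that supply lipid and membrane stood between 3.26 and 11.4 CPM per kb. *Atg9a*, the gene of a scramblase that travels in small vesicles to the forming membrane, had 11.4 CPM per kb. The lipid transfer proteins *Atg2a* and *Atg2b* had 10.7 and 3.26 CPM per kb, a difference that is 3.28-fold. *Wipi2*, which binds phosphatidylinositol 3-phosphate and recruits Atg16l1, had 8.93 CPM per kb and *Wipi1* had 5.55 CPM per kb. Of the same protein family *Wdr45* had 14.4 and *Wdr45b* 7.41 CPM per kb, so *Wipi2* was not the highest of the family. With the longest transcript of each gene as its length the order of these 4 genes was *Wdr45* (29.6 CPM per kb), *Wipi2* (18.2), *Wdr45b* (13.8) and *Wipi1* (7.33), as with merged exons.

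The conjugation genes, which attach Atg12 to Atg5 and Atg8 proteins to lipid, ranged from *Atg3* at 21.5 CPM per kb (21.1 to 21.8) to *Atg10* at 2.28 CPM per kb (2.13 to 2.44). *Atg3* and *Atg10* are the enzymes that perform the last transfer in each of the 2 reactions, *Atg3* for Atg8 proteins and *Atg10* for Atg12. *Atg5* had 20.0 CPM per kb. *Atg12*, the protein joined to it, had 3.76 CPM per kb, and *Atg16l1*, which binds the joined pair, had 3.63 CPM per kb. *Atg7*, the activating enzyme of both reactions, had 6.28 CPM per kb. *Atg4b*, the protease that trims Atg8 proteins, had 3.36 CPM per kb, while *Atg4d*, *Atg4c* and *Atg4a* had 5.68, 2.28 and 1.98 CPM per kb. For *Atg4b* the longest transcript gives 6.64 CPM per kb and for *Atg4d* 6.93, so the distance between these 2 proteases depends on the length used. For *Atg12* and *Atg16l1* the merged exons (7711 and 9628 bases) are also longer than the longest single transcript (4765 and 3751 bases), which gives 6.08 CPM per kb for *Atg12* and 9.32 for *Atg16l1* and so turns the order of these 2 genes.

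Atg8 proteins are the small ubiquitin-like proteins that coat the autophagosome. Among their 5 genes *Gabarapl1* (chr6:129533160-129542346, plus strand) had 319.9 CPM per kb (318 to 322), which was 59.3% of the total of the family. *Gabarap* followed at 156 CPM per kb, 2.06-fold lower. *Map1lc3a* had 40.0 CPM per kb, *Map1lc3b* had 15.6 CPM per kb and *Gabarapl2* had 8.04 CPM per kb, 39.8-fold below *Gabarapl1*. The 2 LC3 genes, whose protein is the usual marker of autophagosomes, therefore made up 7.42% and 2.89% of the family total by length. The level of *Map1lc3b* rests on an estimated 3218 reads per library over 7517 exon bases, and that of *Map1lc3a* on 1299 reads over 1181 bases. With the longest transcript of each gene as its length the order of all 5 was the same, with 28.3 CPM per kb for *Map1lc3b* and 42.5 for *Map1lc3a*. Some of these values may be affected by copies elsewhere in the genome: 17.0% of the 50-base words of the longest *Gabarapl2* transcript, and 9.39% of those of *Map1lc3b*, occur in transcripts of other genes, among them gene models such as *Gm3724* and *Gm6055*. For *Gabarapl1* 28.3% of exon bases overlap *1700101I11Rik* on the opposite strand. For *Gabarap* and *Map1lc3a* no such word was shared.

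**Figure D4:**
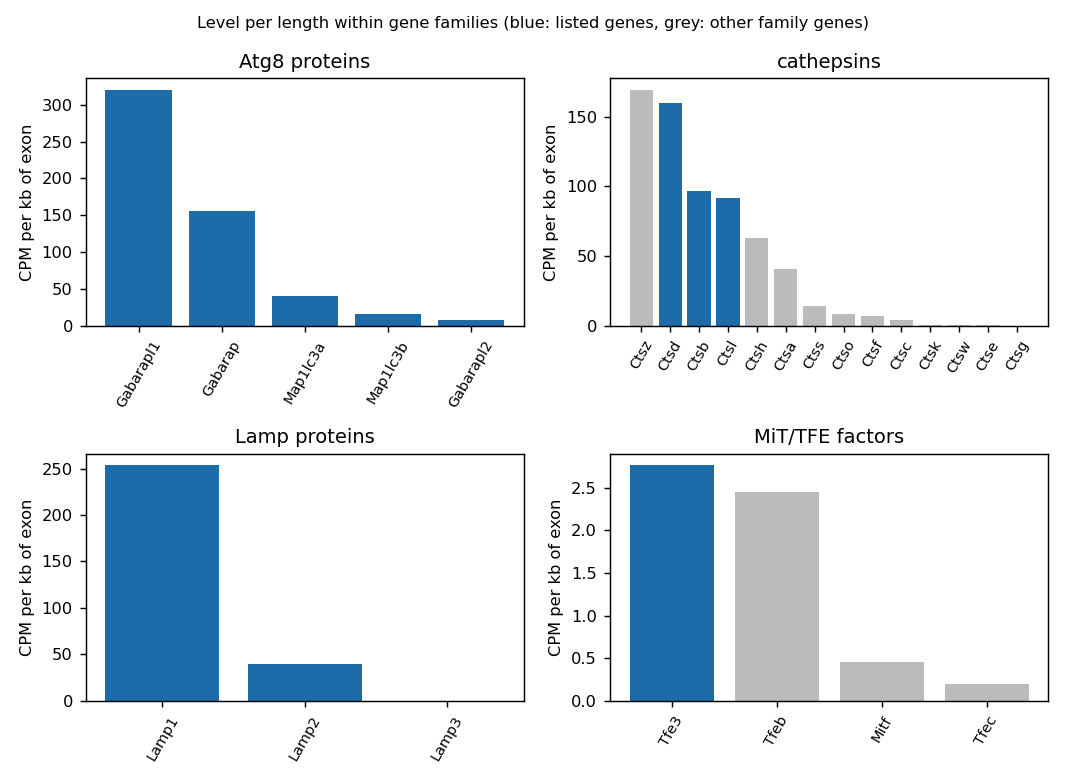
Level per length (CPM per kb of exon, bars from 0) of the genes of 4 families, with listed genes in blue and other genes of the family in grey. Bars are means over the 8 libraries without an error between mice. *Gabarapl1* and *Lamp1* stand highest in their families, cathepsin levels fall from 169 CPM per kb for *Ctsz* to 0 for *Ctsg*, and *Tfe3* and *Tfeb* are of like height.

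Receptors tie cargo to Atg8 proteins. *Sqstm1*, the gene of p62, which binds ubiquitinated proteins and is itself degraded by autophagy, had 119.6 CPM per kb (118.8 to 120.4). *Nbr1*, a related receptor, had 21.6 CPM per kb and *Optn*, which acts in removal of mitochondria and bacteria, had 27.9 CPM per kb. *Bnip3* and *Bnip3l* encode receptors on mitochondria and had 58.2 and 17.8 CPM per kb, which differ 3.28-fold. Per length 4 of the 5 receptors lay above 90% of the genes with reads, with *Bnip3l* just under that limit (89.6% of genes were lower). *Bnip3* and *Bnip3l* share 62.4% and 23.4% of the 50-base words of their longest transcript with other gene models, of which *Bnip3l-ps* is a copy of *Bnip3l*, and 17.3% of the exon bases of *Sqstm1* overlap *Mrnip* on the opposite strand. Reads could therefore be divided among these genes.

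The 5 listed lysosomal genes had the highest median of the groups of the list, 96.3 CPM per kb. Per length all 5 lay above at least 94.3% of the genes with reads. Lysosomal genes outside the list had lower medians. They were 10.2 CPM per kb for 32 hydrolases, 7.41 for 10 cathepsins, 5.23 for 17 membrane proteins and 7.69 for 20 V-ATPase subunits. These medians lay below those of the listed Atg8 genes (40.0) and receptors (27.9), so the high level holds for the listed genes only. *Lamp1* (chr8:13159161-13175338, plus strand) had 253 CPM per kb (252 to 255). *Lamp2* (chrX:38401357-38456454, minus strand), which is needed for chaperone-mediated autophagy as well as for the fusion of autophagosomes with lysosomes, had 39.7 CPM per kb. The ratio of the 2 genes was 6.38, but it hangs on the length of *Lamp2*, whose merged exons of 9552 bases include alternative last exons. With the longest transcripts the values were 304 and 105 CPM per kb. *Lamp3*, a gene of the same family outside the list, had an estimated 1.25 reads per library.

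Cathepsins are the main lysosomal proteases. *Ctsd* (chr7:142375911-142388038, minus strand) had 160.0 CPM per kb (159 to 161). The cysteine proteases *Ctsb* and *Ctsl* had 96.3 CPM per kb (95.8 to 96.8) and 91.6 CPM per kb (91.1 to 92.1). Of the 11 other cathepsin genes only *Ctsz* was of the same height as *Ctsd*, at 169 CPM per kb, and with the longest transcripts as lengths *Ctsd* was higher (177 against 169). *Ctsh* had 63.1 CPM per kb (103 with its longest transcript, then above *Ctsl* at 96.3) and *Ctsa*, a serine carboxypeptidase, had 40.3 CPM per kb. *Ctss*, which is typical of macrophages and other antigen-presenting cells, had 14.2 CPM per kb. *Ctsk*, *Ctsw* and *Ctse* were each under 1 CPM per kb, and *Ctsg*, a protease of neutrophils, had no reads in the table. Gene models overlap 2 of the listed cathepsins: *Gm49369* covers 34.4% of the exon bases of *Ctsd* on the same strand, and *Gm47123* covers 26.8% of those of *Ctsl* on the opposite strand. Neither model is a gene of the deposited table.

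*Tfe3* was the one transcription factor of the list. It had 2.76 CPM per kb (2.69 to 2.83), which put it above 64.2% of the genes with reads. Its relative *Tfeb* had 2.45 CPM per kb, *Mitf* had 0.460 and *Tfec* had 0.203 CPM per kb. Which of *Tfe3* and *Tfeb* was higher depends on the length used, as the longest transcripts give 4.04 CPM per kb for *Tfe3* and 5.93 for *Tfeb*. *Ppara* itself, the gene that carries the substitution in the V227A mice, had 86.5 CPM per kb, from an estimated 9112 reads per library.

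The rest of the pathway was described with 145 further genes in 7 lists, of which 140 had reads. Their median was 5.88 CPM per kb, against 12.2 for the 36 genes and 1.07 for all genes with reads. Above the median of all genes with reads lay 118 of the 140. Of the 31 other autophagy genes all had reads and 28 lay above that median, with *Pink1*, the kinase that marks damaged mitochondria, highest at 69.0 CPM per kb. Of the 24 subunits of the V-ATPase, the proton pump that acidifies lysosomes, 20 had reads and 16 lay above the median. They ran from *Atp6v0a4* at 0.0185 CPM per kb to *Atp6v0d1* at 50.5 CPM per kb. The subunit genes without reads were *Atp6v1b1*, *Atp6v1c2*, *Atp6v1e2* and *Atp6v1g3*, forms known from kidney, testis and other specialized cells.

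All 32 other lysosomal hydrolases had reads, and 30 lay above the median per length. The highest was *Acp5*, an acid phosphatase, at 77.6 CPM per kb, and those not above the median were *Galc* (0.343 CPM per kb) and *Ids* (0.991 CPM per kb). The 17 other membrane proteins ran from *Lamp3* (0.0135 CPM per kb) to *Laptm4a* (88.2 CPM per kb), and 13 of them lay above the median. The 20 nutrient sensing genes, which hold mTORC1, its lysosomal anchors and AMPK, ran from *Rragb* (0.0182 CPM per kb) to *Lamtor2* (44.8 CPM per kb), a subunit of the complex that anchors mTORC1 to the lysosome. In the list of 10 other transcription factors *Ppara* was the highest and *Tfec* the lowest, and 6 lay above the median.

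**Figure D5:**
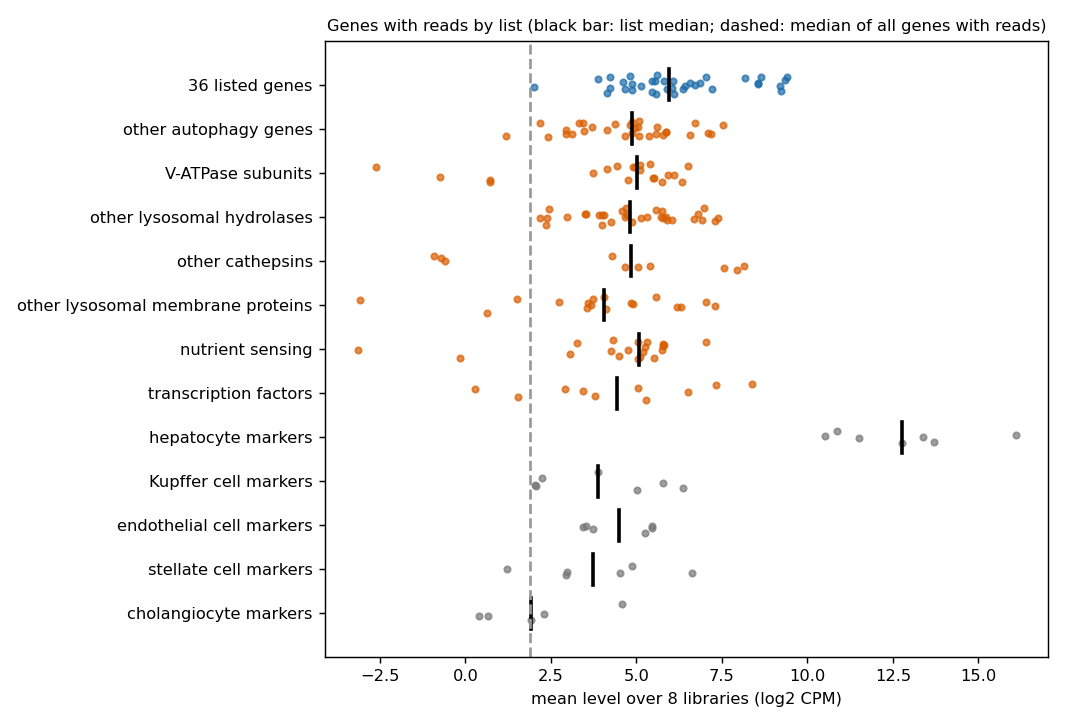
Mean level on the log2 CPM scale (horizontal axis, not divided by length) of every gene with reads in the list of 36 genes (blue), in the 7 other lists of the pathway (orange) and among markers of 5 liver cell types (grey). Black bars are list medians and the dashed line is the median of all genes with reads. The 36 genes have a median of 5.96, and the hepatocyte markers lie apart to the right.

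The tissue was checked against markers of liver cells, whose values are given as log2 CPM, not divided by length. All 7 hepatocyte markers lay above a log2 CPM of 10.5, from *Tat* (10.51) to albumin, *Alb* (16.09). RNA of other liver cells was detected too. The 7 Kupffer cell markers, which mark the resident macrophages of liver, ran from *Marco* (2.03) to *Clec4f* (6.36). The 6 endothelial markers ran from *Lyve1* (3.44) to *Stab1* (5.47), the 6 stellate markers from *Rgs5* (1.22) to *Dcn* (6.64) and the 5 cholangiocyte markers from *Krt7* (0.39) to *Spp1* (4.58). All 4 lymphocyte, 3 neutrophil and 2 muscle markers lay below 0, the adipose marker *Adipoq* lay at -1.63 and *Cfd* at 0.76, and of the 3 pancreas markers *Cpa1* and *Pnlip* had no reads and *Cela3b* lay at -3.69. The 3 red blood cell markers in the table ran from *Hba-a2* (2.01) to *Hbb-bs* (6.29). In bulk tissue the number of cells of a type and the RNA per cell cannot be told apart, and the part of each cell type in the levels of the 36 genes was not tested.

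Counting could be shared with other genes for a part of the list. In the annotation 22 of the 36 genes have no exon base in common with another gene, 13 overlap a gene on the opposite strand and 3 a gene on the same strand. For 6 genes more than 10% of the exon bases lie opposite another gene. In 17 genes no 50-base word of the longest transcript occurs in another gene, and in 10 genes more than 10% do. Beside the genes named above, *Atg9a* shares 31.8% of its exon bases with the model *Gm29253* on its own strand. *Ctsb* shares 12.8% with *Fdft1*, a gene of sterol synthesis, on the opposite strand. By symbol, none of the models that overlap the 3 genes on the same strand is in the deposited table.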

How the data were processed

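RNA of liver from 4 wild-type and 4 V227A mice had been sequenced in read pairs from stranded, poly-A selected libraries. Per the labels, the authors used Trimmomatic and FastQC on the reads, STAR with GRCm38 for alignment, featureCounts for counts per gene and edgeR for the mean level. Versions, annotation and strand setting are not given in the sources used here. The deposited log2 CPM is the authors' mean over all 8 libraries. The table's fold changes, F statistics, p-values and FDR values are the authors' own comparison of the genotypes and were not used, so no test was run.

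Reads per library were estimated from the lowest log2 CPM with a prior count of 2. Estimated totals over the 8 libraries were whole to within 0.1 for 99.9% of the 2378 genes with 1 to 5 reads. The conversion was also tested on data simulated with the same prior count and averaging. That test cannot show whether the deposited values were made in this way. Lengths, places and overlaps came from GENCODE vM21, matched for 94.8% of genes with reads, and promoters from RefSeq. The symbol *Hbb-bt* was not found in the deposited table.

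All 36 genes are named. Of every other list the highest and lowest gene with reads, per length for lists of the pathway (a scale chosen after values were seen), and genes without reads are named, except for some that are not reported here. *Tfeb*, *Mitf*, *Ids* and further genes of the listed families were added, some after their values were seen. The genes and lists were chosen with earlier results of these data known. Python 3.11.15, pandas 2.3.3, numpy 2.4.6, scipy 1.17.1 and matplotlib 3.10.9 were used.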

Additional observations from a re-analysis of the deposited data

How the results depend on the processing

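Of 16 alternatives over 5 results, 15 left the count within 1.5 times its value. With the longer palindrome TCACGTGA, which matches less often, the count of promoters fell from 6 to 2. That is 6.25%, against 1.58% of the promoters of genes with reads. With the E-box CACGTG the count was 9 (28.1%, against 9.05%). Higher than 90% of the genes with reads lay 18 of the 36 genes, and the count was 12 among genes with a log2 CPM of at least 0, 25 over all genes of the table and 14 per kb, both of merged exons and of the longest transcript, a length added for this count after seeing the data. Above the median lay 34 to 36 genes under each background. The 10 highest genes per length were the same 10 genes with the longest transcript as length and with the prior count kept.

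No paired analysis was possible because the only values used are means over all 8 libraries, and leaving out single replicates could not be done for the same reason. Depth limits the mean levels little, since even *Atg10* had an estimated mean of 107.8 reads per library. The counts in single libraries are not known. The spread between mice is not known, so the Poisson intervals cover only a part of the error of each level, and the choice of length moved single levels by up to 2.65-fold.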
